A study of Homo sapiens with 4 samples.

Results

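Of 60719 genes in the deposited tables, 43 encode translation initiation factors, their subunits or their direct inhibitors, and all 43 were matched by symbol to an Ensembl gene identifier. The RNA came down with KIF5A, a motor subunit of kinesin-1, from SKNAS, a long-established neuroblastoma cell line of human origin. The cells carried a transiently transfected V5-WT KIF5A or V5-d27 KIF5A construct (delivered with Lipofectamine), and precipitation on anti-V5 magnetic beads started a day later. There were 2 precipitates of each construct, here called WT and d27 replicates 1 and 2. The labels name no separate cultures, so the spread between libraries, on which all p-values rest, may be technical. No input or mock precipitate is used here, so a higher share of an mRNA in the precipitate and a higher share of it in the cell cannot be told apart, nor can fewer cells with an mRNA and less of it per cell.

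Initiation factors bring the small ribosomal subunit, the initiator tRNA and the mRNA together. eIF2 carries the initiator tRNA and is recharged by its exchange factor eIF2B, while eIF3 forms a scaffold on the small subunit. The eIF4 proteins bind the mRNA cap and unwind the leader, and eIF1, eIF1A and eIF5 govern how strictly the start codon is chosen. The cell limits the process by phosphorylating eIF2 and by releasing eIF4E-binding proteins, which occupy the cap-binding protein eIF4E.

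Gene counts totalled between 8142869 and 18335151 per library, and each of the 43 mRNAs had at least 51 counts in every library and passed the filter on low counts. HTSeq summary entries (reads with no gene, with several genes or with several alignments) held 47.6% and 47.3% of all entries in WT and 25.9% and 36.8% in d27. Of the markers of the line, 6 of 8 adrenergic and 9 of 9 mesenchymal neuroblastoma genes had more than 3 counts in every library, while TH had 5, 0, 0 and 1 counts. Of 8 markers of other cells, 5 had at most 3 counts in every library, but the leukocyte gene PTPRC had between 858 and 1852 counts, and its level was lower in d27 (log2 fold change -0.96, edgeR adjusted p = 0.0433). The summed level of these 8 markers was 191 and 163 CPM in WT and 101 and 81.0 CPM in d27. Nearly all of this was PTPRC, at 189 and 162 CPM in WT and 100 and 79.5 CPM in d27. The part of these markers in the results was not tested. CPM are counts relative to the library size, which was scaled by the TMM method. The adrenergic markers summed to 849 and 890 CPM in WT and 736 and 602 CPM in d27, and none passed. Of the mesenchymal markers only FOSL1 passed, from 166 and 142 CPM in WT to 1911 and 1743 CPM in d27. The mesenchymal sum was 3609 and 3879 CPM in WT and 5225 and 4770 CPM in d27. Without FOSL1 it was 3444 and 3737 CPM in WT and 3314 and 3026 CPM in d27. The largest part of the sum without FOSL1 was VIM, at 1804 and 1856 CPM in WT and 1182 and 1336 CPM in d27. Both d27 libraries were below both WT libraries for VIM and FN1. They were above both for FOSL2, YAP1, WWTR1, SNAI2 and CD44, and PRRX1 overlapped.

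The start codon contexts below, from GENCODE release 29 transcripts on GRCh38, are shown because 3 of the 5 initiation factor mRNAs that rose encode proteins that select the start codon, and eIF1 is known to reduce initiation at poor contexts, including its own. The capitals mark the start codon, with 9 bases before it and 1 after it. The start codons lie at chr17:41689039-41689041 (EIF1, plus strand), chr3:40309942-40309944 (EIF1B, plus), chrX:20141638-20141640 (EIF1AX, minus), chr11:66000387-66000389 (EIF1AD, minus), chr10:70404402-70404404 (EIF4EBP2, plus) and chr14:103335861-103335863 (EIF5, plus).

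EIF1: tcgtatcgtATGt
EIF1B: tagtatcgcATGt
EIF1AX: gccaccgccATGc
EIF1AD: gacttcagcATGt
EIF4EBP2: cccacagccATGt
EIF5: taagccaaaATGt

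EIF1 and EIF1B carried neither of the favoured bases, a purine at the third base before the start codon or a G directly after it. Of 42 members with an ATG start, 3 lacked both, EIF3B being the other, which is 7.14% against 6.88% of 18582 genes. A purine and a G together were present in 17 of the 42 members (40.5%) and in 42.7% of all genes. EIF4G2 was left out of this count because its annotated start codon is GTG.

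In the comparison of d27 with WT, which asks how the recovered RNA differs between the mutant and the wild-type motor, 5 of the 43 initiation factor mRNAs rose in d27, none fell and 38 did not pass. The 5 were EIF1, EIF1B, EIF1AX, EIF1AD and EIF4EBP2. The share that rose was 11.6%, beside 8.00% of all 14909 genes tested. No member passed as lower in this edgeR test, beside 3.70% of all genes, but 6 of 43 were lower at an unadjusted p below 0.05, beside 13.6% of all genes. DESeq2 called 5 members lower and 10 higher, beside 7.75% and 11.0% of all genes. The median log2 fold change of the members was -0.01, beside -0.00043 for all genes tested. Both d27 libraries lay above both WT libraries for 17 members (39.5%) and below them for 14 (32.6%), beside 31.4% and 29.8% of all genes tested. Of each library's gene counts, the members together took 0.913% and 0.884% (WT) or 0.919% and 0.928% (d27). These shares did not overlap, and their means differed by 0.0249 percentage points (exact two-sided permutation p = 0.33, the smallest that 2 against 2 libraries can give). With KIF5A and the mitochondrially encoded genes left out of the totals, the shares overlapped (1.03% and 1.05% in WT, 1.04% and 1.06% in d27), the difference was 0.00388 percentage points and the exact permutation p was 0.67.

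**Figure D1:**
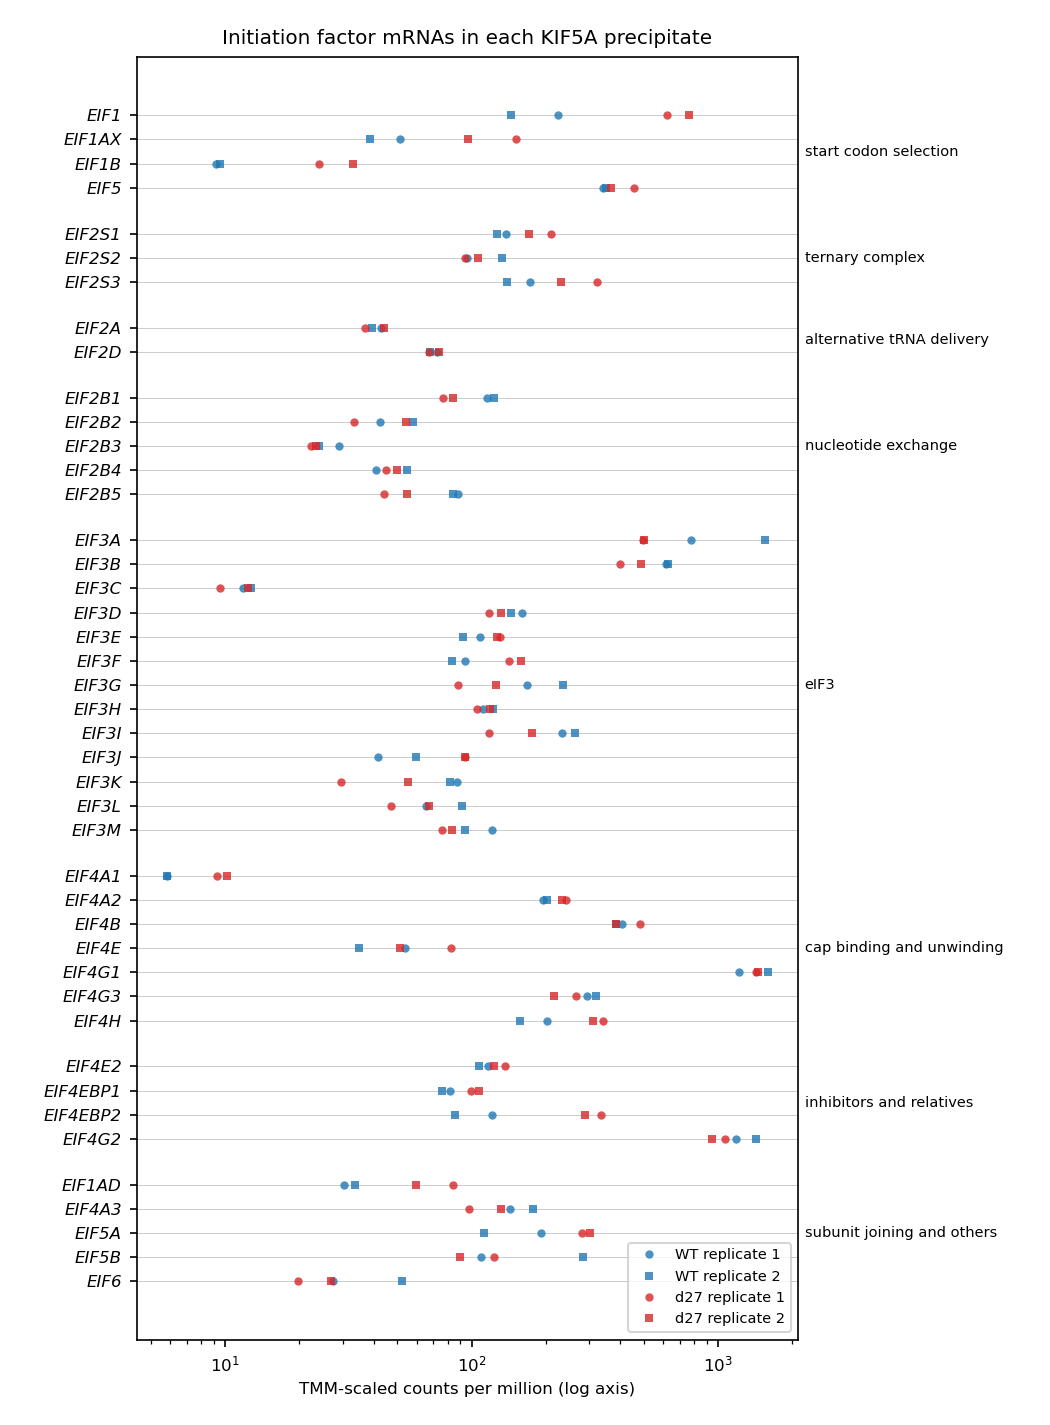
Level of each of the 43 initiation factor mRNAs in the 4 libraries, in TMM-scaled CPM on a log axis, grouped by role. Blue is WT and red is d27, circles are replicate 1 and squares replicate 2. For EIF1, EIF1B, EIF1AX, EIF1AD and EIF4EBP2 both red points lie clear to the right of both blue points.

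EIF1 encodes eIF1, which holds the scanning ribosome open until a start codon is matched. The gene lies on chromosome 17, 41688885 to 41692668 (GRCh38, plus strand). Its level was 225 and 145 CPM in WT replicates 1 and 2 and 620 and 765 CPM in d27 replicates 1 and 2. Both d27 libraries lay above both WT libraries, by more than the spread within either group. The means were 185 ± 57 and 692 ± 102 CPM (SD, n = 2 each), and the level in d27 was 3.74 times that in WT (log2 fold change 1.90 ± 0.31 SE, edgeR adjusted p = 0.0139).

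EIF1B encodes a close relative of eIF1 from a separate gene on chromosome 3. It had 9.19 and 9.53 CPM in WT and 24.1 and 33.1 CPM in d27. The WT values lay close together and below both d27 values (log2 fold change 1.61 ± 0.31 SE, edgeR adjusted p = 0.0216). Per kilobase of principal transcript, EIF1B averaged 18.8 CPM over the 4 libraries and EIF1 188. The log2 ratio of EIF1 to EIF1B counts was 4.61 and 3.93 in WT and 4.69 and 4.53 in d27, so that the groups overlapped. EIF1 and EIF1B have related coding sequences. Reads with several alignments were listed in the HTSeq summary entries, at 23.7% and 22.8% of all entries in WT and 9.10% and 17.1% in d27. How many of these matched both genes is not known.

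EIF1AX, on the X chromosome, encodes eIF1A, the partner of eIF1 in scanning. It had 51.4 and 38.5 CPM in WT and 152 and 96.7 CPM in d27 (log2 fold change 1.47 ± 0.30 SE, edgeR adjusted p = 0.0253). EIF1AD encodes a related protein with an eIF1A-like domain. It had 30.3 and 33.7 CPM in WT and 83.8 and 59.6 CPM in d27 (log2 fold change 1.16 ± 0.27, edgeR adjusted p = 0.0357). In both mRNAs the groups stood apart and d27 replicate 1 was the highest library. EIF1AD shares 2.95% of its exon bases with BANF1 on the opposite strand, and the strand setting of the counting is not given in the sources used here.

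EIF5 encodes the protein that triggers GTP hydrolysis on eIF2 once the start codon is found. Its levels of 343 and 351 CPM in WT and 457 and 367 CPM in d27 did not overlap, but the difference did not pass (log2 fold change 0.25 ± 0.25 SE, edgeR adjusted p = 0.541). Thus 3 of the 4 start codon selection factors rose, beside 8.00% of all tested genes, and no test compared this small role with that share. The other, EIF5, had a fold change about as large as its error and below 0 with the offset for coding length (log2 -0.16).

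EIF4EBP2 encodes a binding protein that keeps eIF4E from the cap-binding scaffold. Its level was 121 and 85.3 CPM in WT and 334 and 288 CPM in d27. Both d27 values exceeded both WT values, with means of 103 ± 25 and 311 ± 32 CPM (SD, n = 2 each) and a log2 fold change of 1.60 ± 0.27 SE (edgeR adjusted p = 0.0152). Its paralog EIF4EBP1, which has the same role, had 81.8 and 75.6 CPM in WT and 99.3 and 107 CPM in d27 and did not pass (log2 fold change 0.39 ± 0.23, edgeR adjusted p = 0.276). The log2 ratio of EIF4EBP1 to EIF4EBP2 counts went from -0.56 and -0.17 in WT to -1.75 and -1.43 in d27, a drop by 1.22 in the mean. The ratio thus stood apart between the groups. Which of the pair was higher depended on the length used. Per kilobase of principal transcript EIF4EBP1 was higher in every library, at 80.2 and 74.2 CPM in WT and 97.4 and 105 CPM in d27, against 16.6 and 11.8 and then 46.0 and 39.7 for EIF4EBP2, whose transcript of 7257 nucleotides is mostly 3' UTR. Per kilobase of coding sequence EIF4EBP2 was the higher, with means over the 4 libraries of 570 and 255 CPM.

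The calls of EIF1 and EIF4EBP2 were kept in all 13 alternatives, with log2 fold changes of 1.51 to 2.30 and 1.18 to 1.91. Without d27 replicate 1 those of EIF1AX (log2 1.12, edgeR adjusted p = 0.0795) and EIF1AD (0.91, 0.241) were lost, and without d27 replicate 2 that of EIF1B (1.39, 0.0712). Over the 13 alternatives the adjusted p ran from 1.64e-05 to 0.0795 for EIF1AX, from 0.0017 to 0.241 for EIF1AD and from 0.00029 to 0.0712 for EIF1B (edgeR or DESeq2).

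**Figure D2:**
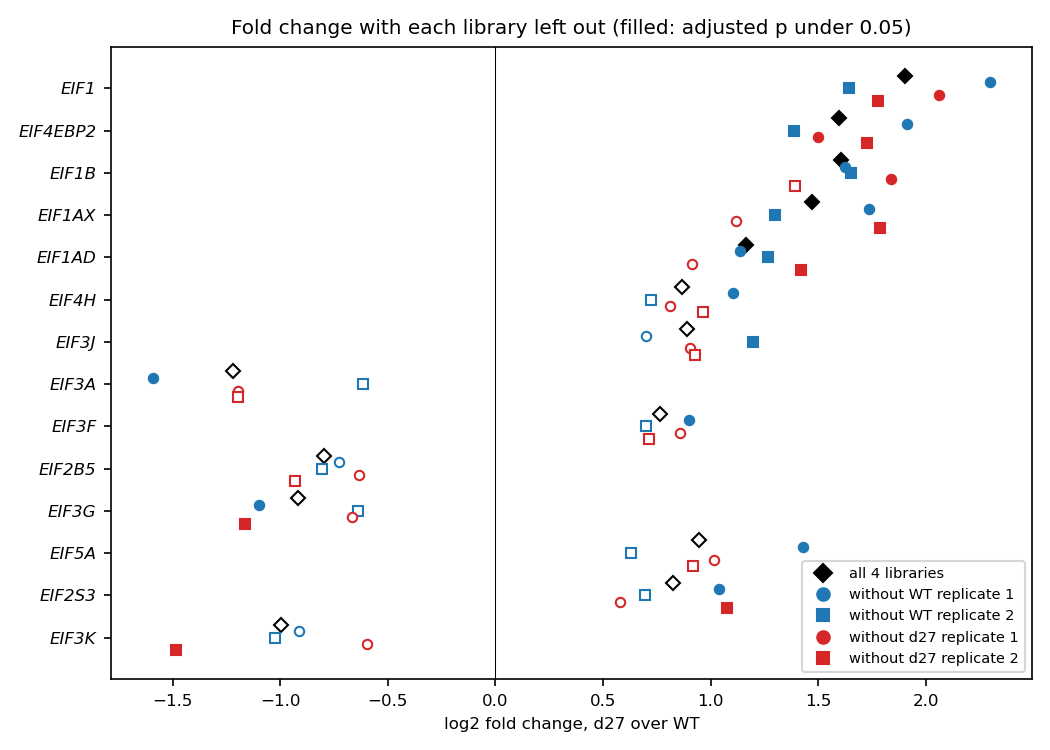
Log2 fold change, d27 over WT, of the 14 initiation factor mRNAs with the lowest p-values, with all 4 libraries (diamonds) and with each library left out in turn (circles and squares). Filled marks passed edgeR at an adjusted p of 0.05. EIF1 and EIF4EBP2 are filled in every fit, and no mark crosses 0.

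The 5 mRNAs that rose were among the 7 members with the shortest coding sequences, of at most 498 nucleotides. EIF1 and EIF1B encode proteins of 113 residues, EIF4EBP2 one of 120, EIF1AX one of 144 and EIF1AD one of 165. The other 2 short members were EIF4EBP1, with 118 residues, and EIF5A, with 154 residues, and neither passed. Across the 43 members the Spearman correlation of coding length with log2 fold change was -0.52, and across 12279 tested genes it was -0.40. Members and genes share the same 4 libraries, so both are descriptions. Of the 1006 tested genes with a coding length up to 498 nucleotides, a limit chosen after these values were seen, 16.8% rose, beside 8.00% of all tested genes. With an offset for GC content, coding length and 3' UTR length, EIF1AD did not pass (log2 0.64, edgeR adjusted p = 0.147), while EIF1 (1.51), EIF1B (1.45), EIF1AX (0.84) and EIF4EBP2 (1.18) did.

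**Figure D3:**
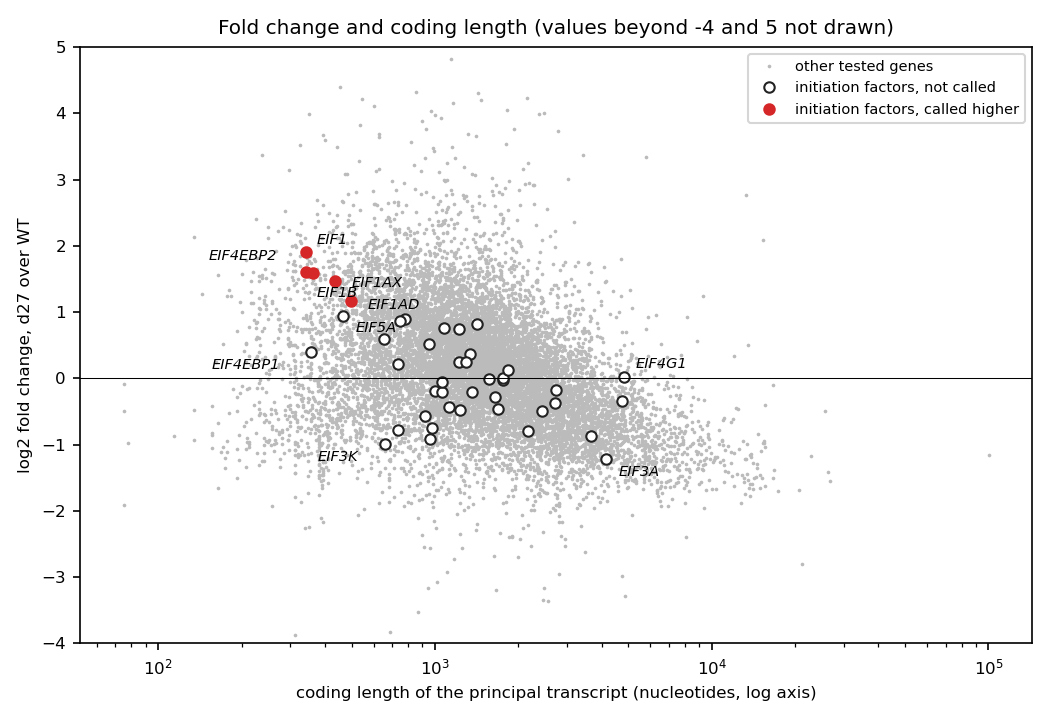
Log2 fold change, d27 over WT, against coding length of the principal transcript in nucleotides (log axis) for the initiation factors and, in grey, the other tested protein-coding genes. The 5 red points, the members that rose, lie at coding lengths of 342 to 498 nucleotides.

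eIF2 has 3 subunits and forms the ternary complex with GTP and the initiator tRNA. None of their mRNAs passed. EIF2S3, the GTP-binding gamma subunit, had 173 and 139 CPM in WT and 322 and 230 CPM in d27 (log2 fold change 0.82 ± 0.27 SE, edgeR adjusted p = 0.0849). EIF2S3 passed as higher with DESeq2 (adjusted p = 0.0345), no filter, the replicate block and the likelihood ratio test. It did not with library totals or either offset for length. EIF2S1, the alpha subunit that stress kinases phosphorylate, had 138 and 127 CPM in WT and 210 and 171 CPM in d27 (0.52 ± 0.24, edgeR adjusted p = 0.182). In both, d27 lay above WT without overlap, but with the offset for coding length EIF2S1 was at -0.09. EIF2S2, the beta subunit, overlapped between groups, at 95.9 and 133 CPM in WT and 94.3 and 106 CPM in d27. The factors that deliver tRNA without eIF2, EIF2A and EIF2D, had fold changes near 0 (log2 -0.02 ± 0.26 and 0.01 ± 0.23).

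The 5 eIF2B subunits, which exchange GDP for GTP on eIF2, all had log2 fold changes below 0, from -0.80 to -0.01, and none passed. EIF2B4 had no stable direction, with 0.05 when scaled by library totals, 0.06 with no filter and 0.46 with the offset for coding length, and EIF2B2 was at 0.12 without d27 replicate 1. EIF2B5, the catalytic epsilon subunit, had 87.8 and 84.3 CPM in WT and 44.2 and 54.9 CPM in d27 (log2 fold change -0.80 ± 0.24 SE, edgeR adjusted p = 0.0707). EIF2B5, EIF2B1 and EIF2B3 were lower in both d27 libraries than in both WT libraries, as were 29.8% of all tested genes. EIF2B2 and EIF2B4 overlapped. EIF2B5 passed as lower in 4 of the 13 alternatives, DESeq2 among them (adjusted p = 0.0395), and EIF2B1 passed as lower with both offsets for length (log2 -0.77 and -1.03).

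The 13 eIF3 subunit mRNAs spread on both sides of 0. None passed the edgeR test used for the calls above, though several passed in alternatives given below. Their median log2 fold change was -0.43, with 10 below 0 and 3 above. Both d27 libraries were below both WT libraries for 7 of the 13 and above them for 3, beside 29.8% and 31.4% of all tested genes. EIF3A, the largest scaffold subunit, had 777 and 1551 CPM in WT and 497 and 502 CPM in d27 (log2 fold change -1.22 ± 0.36 SE, edgeR adjusted p = 0.0653). The WT libraries differed from each other more than the lower of them did from d27.

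EIF3G and EIF3I form, with EIF3B, a peripheral module of eIF3. EIF3G had 169 and 235 CPM in WT and 88.0 and 126 CPM in d27 (log2 fold change -0.92 ± 0.29 SE, edgeR adjusted p = 0.0742), and EIF3I had 232 and 264 CPM in WT and 118 and 176 CPM in d27 (-0.76 ± 0.27, edgeR adjusted p = 0.108). EIF3K, a small subunit of the core, had 87.2 and 81.8 CPM in WT and 29.5 and 55.3 CPM in d27 (-0.998 ± 0.33, edgeR adjusted p = 0.0850). In all 3 the groups stood apart, with d27 replicate 1 the lowest library.

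The eIF3 mRNAs with d27 above WT were EIF3J, EIF3F and EIF3E. EIF3J, a loosely attached subunit, had 41.6 and 59.7 CPM in WT and 94.2 and 93.8 CPM in d27 (log2 fold change 0.89 ± 0.26 SE, edgeR adjusted p = 0.0649). EIF3F, a core subunit, had 94.0 and 83.0 CPM in WT and 142 and 159 CPM in d27 (0.76 ± 0.23, edgeR adjusted p = 0.0676). EIF3E had the smallest difference of the 3 (0.36 ± 0.23, edgeR adjusted p = 0.315). DESeq2 and edgeR with the replicate block called EIF3F and EIF3J higher and EIF3A, EIF3G, EIF3I and EIF3K lower. The edgeR likelihood ratio test and edgeR with no filter made the same calls except for EIF3I. EIF3G also passed as lower with the filter of at least 50 counts and with both offsets for length. EIF3A passed as lower with that filter too, and EIF3I with the offset for coding length. With the offset for GC content and exon length, EIF3K passed as lower and EIF3F as higher. The remaining subunits, EIF3B, EIF3C, EIF3D, EIF3H, EIF3L and EIF3M, had log2 fold changes of -0.49 to -0.06, but with the offset for coding length EIF3C was at 0.59 and EIF3D at 0.11, and EIF3M passed as lower (-0.91, edgeR adjusted p = 0.0428). Whether any of these subunits differ from each other in fold change was not tested.

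**Figure D4:**
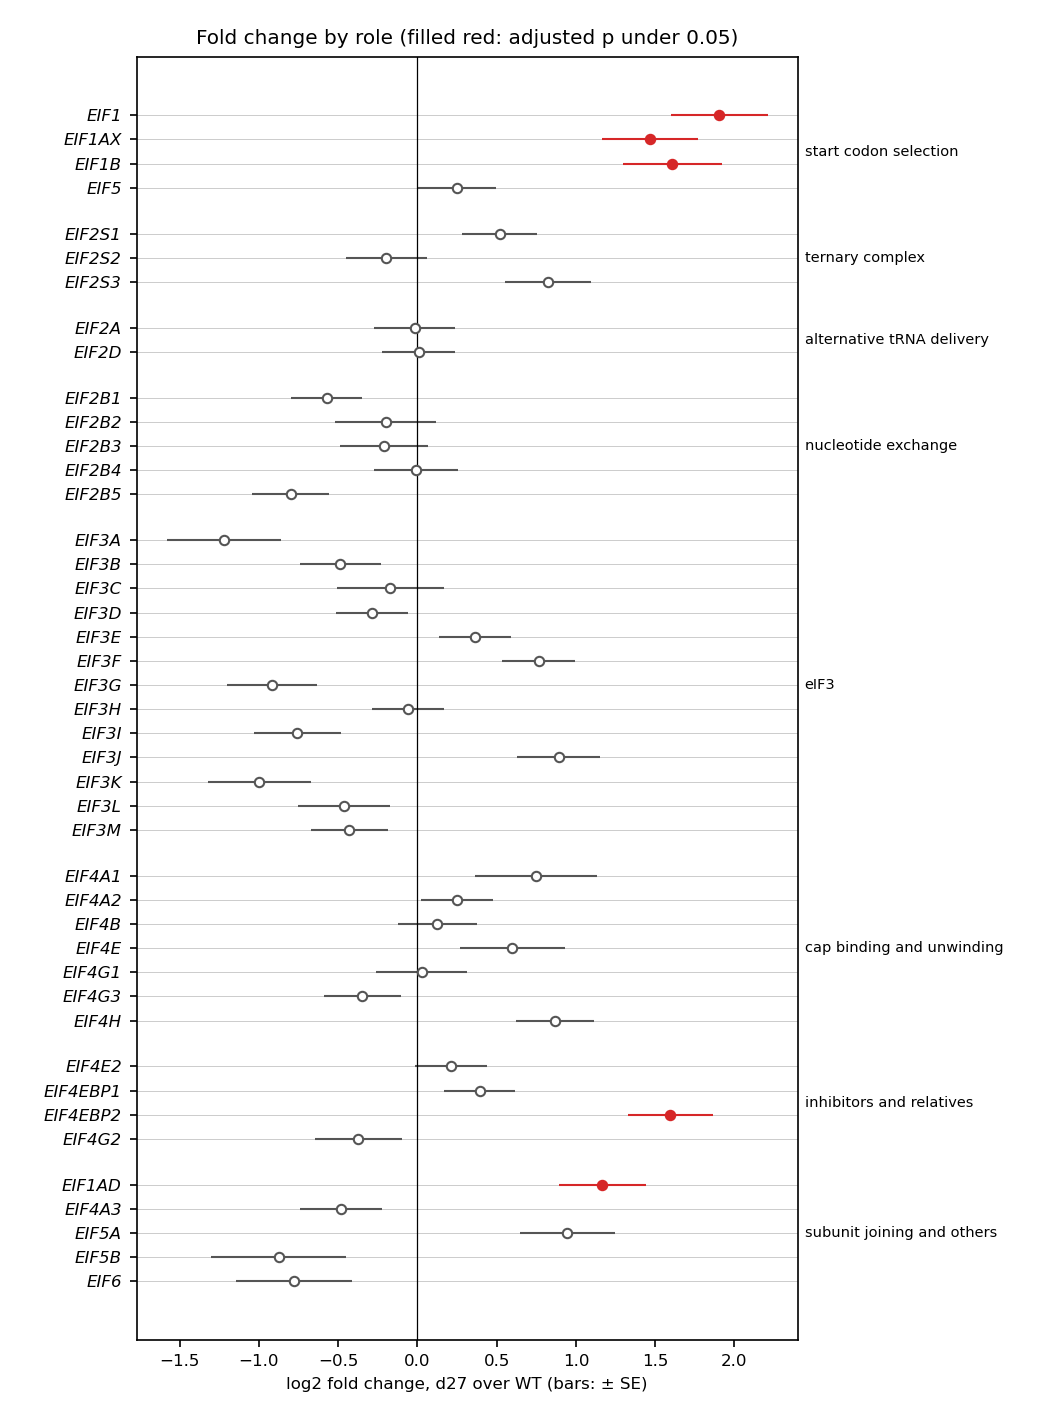
Log2 fold change, d27 over WT, of all 43 initiation factor mRNAs by role, with bars of 1 SE from edgeR. Filled red marks passed at an adjusted p of 0.05. They are 3 of the 4 start codon selection factors, EIF4EBP2 and EIF1AD, while the 13 eIF3 marks run from -1.22 to 0.89. Of all tested genes, 8.00% passed as higher.

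None of the 7 mRNAs for cap binding and unwinding passed in the test of all 4 libraries, but EIF4G1 did with the offset for GC content, coding length and 3' UTR length (log2 1.03, edgeR adjusted p = 0.0380), where EIF4G3 was at 0.48. EIF4H, a cofactor of the helicase eIF4A, came nearest, with 201 and 157 CPM in WT and 343 and 311 CPM in d27 and no overlap (log2 fold change 0.87 ± 0.25 SE, edgeR adjusted p = 0.0600), and it passed with DESeq2. EIF4G1, the scaffold that joins cap, helicase and ribosome, was at 1221 and 1594 CPM in WT and 1420 and 1448 CPM in d27 (0.03 ± 0.29). Its paralog EIF4G3 was at 294 and 320 CPM in WT and 266 and 216 CPM in d27 (-0.35 ± 0.24, edgeR adjusted p = 0.367). The log2 ratio of EIF4G1 to EIF4G3 counts was 2.06 and 2.32 in WT and 2.42 and 2.74 in d27, higher in both d27 libraries. EIF4B, which stimulates the helicase, overlapped between groups (0.13 ± 0.25).

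EIF4E, the cap-binding protein itself, had 53.5 and 35.0 CPM in WT and 82.8 and 51.2 CPM in d27, and the groups overlapped (log2 fold change 0.60 ± 0.33 SE, edgeR adjusted p = 0.260). It passed as higher without WT replicate 1 (0.98, edgeR adjusted p = 0.0389). Its repressive relative EIF4E2 was at 117 and 107 CPM in WT and 137 and 123 CPM in d27 (0.21 ± 0.23, edgeR adjusted p = 0.563). The helicase EIF4A2 was at 195 and 203 CPM in WT and 241 and 233 CPM in d27 (0.25 ± 0.23, edgeR adjusted p = 0.490). Its paralog EIF4A1 was counted at 5.79 and 5.80 CPM in WT and 9.28 and 10.2 CPM in d27 (0.75 ± 0.38, edgeR adjusted p = 0.229). EIF4A1 shares 29.8% of its exon bases with the read-through gene SENP3-EIF4A1 on the same strand and 41.1% with AC016876.2, and reads that fall in several genes are not in the gene counts, so its level is uncertain.

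Of the remaining factors, EIF5A, a translation elongation and termination factor despite its name, had 191 and 112 CPM in WT and 281 and 303 CPM in d27 (log2 fold change 0.95 ± 0.30 SE, edgeR adjusted p = 0.0794). EIF5A passed as higher with DESeq2 (adjusted p = 0.0201), no filter, the replicate block and the likelihood ratio test. It did not with library totals or either offset for length. EIF5B, the GTPase that joins the subunits, had 109 and 283 CPM in WT and 124 and 89.7 CPM in d27, with WT replicate 2 far above the other 3 libraries (-0.87 ± 0.43, edgeR adjusted p = 0.208). The value turned on which WT library was kept: EIF5B passed as lower without WT replicate 1 (-1.36, edgeR adjusted p = 0.0016) and was at -0.0025 without WT replicate 2. EIF6, which keeps the large subunit from joining early, at 27.3 and 52.4 CPM in WT and 19.8 and 26.9 CPM in d27, and EIF4A3, a core protein of the exon junction complex, did not pass (-0.78 ± 0.37 and -0.48 ± 0.26). EIF6 passed as lower without WT replicate 1 (-1.13, edgeR adjusted p = 0.0095) and was at -0.21 without WT replicate 2. EIF4G2, an eIF4G relative that does not bind eIF4E, had 1179 and 1422 CPM in WT and 1064 and 945 CPM in d27 (-0.37 ± 0.28, edgeR adjusted p = 0.396).

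Levels between genes were compared per kilobase of principal transcript, as the mean of TMM-scaled CPM per kilobase over the 4 libraries. EIF4G2 (288) and EIF4G1 (258) were at the top of this pooled order, and EIF4E (4.83), EIF4A1 (4.42) and EIF3C (3.69) were at the bottom. The place of EIF1 differed between the groups: it was in rank 12 of 43 in WT, with 96.6 and 62.2 CPM per kilobase, and in rank 1 in d27, with 266 and 328. In d27 replicate 1 EIF1 and EIF4G2 (both 266) were level, and in d27 replicate 2 EIF1 lay above EIF4G1 (262) and EIF4G2 (236). Per kilobase of coding sequence EIF1 was the highest member, at a mean of 1283 over the 4 libraries. EIF3C has a near-identical copy, EIF3CL, so its counts may be split or left out, and the EIF4E value rests on a principal transcript of 11523 nucleotides.

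Genes outside the 43 that act on the same pathway were taken from 3 lists. Of 16 tested genes that control initiation, 3 rose, 2 fell and 11 did not pass, beside 8.00% of all tested genes higher and 3.70% lower. Their median log2 fold change was 0.35, and no test compared the list with all genes. PPP1R15A, which directs dephosphorylation of eIF2, rose from 252 and 294 CPM in WT to 1673 and 1665 CPM in d27 (log2 fold change 2.61 ± 0.28 SE, edgeR adjusted p = 0.00680). MKNK2, a kinase of eIF4E, rose from 41.4 and 67.9 CPM in WT to 208 and 285 CPM in d27 (2.17 ± 0.32, edgeR adjusted p = 0.0109). EIF2AK2, the kinase PKR that phosphorylates eIF2 on double-stranded RNA, rose from 103 and 135 CPM to 252 and 222 CPM (0.99 ± 0.25, edgeR adjusted p = 0.0423).

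The 2 that fell were GIGYF2, the partner of EIF4E2 in repression, with 219 and 291 CPM in WT and 142 and 105 CPM in d27 (log2 fold change -1.05 ± 0.27 SE, edgeR adjusted p = 0.0457), and CYFIP1, an eIF4E-binding protein of the FMRP complex, with 201 and 206 CPM in WT and 76.6 and 109 CPM in d27 (-1.14 ± 0.26, edgeR adjusted p = 0.0330). GCN1, at 963 and 2079 CPM in WT and 375 and 675 CPM in d27 (-1.54 ± 0.44, edgeR adjusted p = 0.0619), which activates the kinase GCN2, and EIF2AK4, at 161 and 201 and then 101 and 107 CPM (-0.80 ± 0.24, edgeR adjusted p = 0.0659), which encodes GCN2, did not pass. The EIF2AK2 call was lost without WT replicate 1 (edgeR adjusted p = 0.0528) and d27 replicate 1 (0.144), and that of CYFIP1 without d27 replicate 1 (0.206). The GIGYF2 call was lost without WT replicate 2 (0.134), d27 replicate 1 (0.0532) and d27 replicate 2 (0.184). Both GIGYF2 and CYFIP1 also missed the threshold with library totals (edgeR adjusted p = 0.0564 and 0.0533) and with the offsets for length, and EIF2AK2 did with that for coding length (0.0916). Over the 13 alternatives the adjusted p ran from 0.00507 to 0.144 for EIF2AK2, from 0.00122 to 0.206 for CYFIP1 and from 0.00398 to 0.184 for GIGYF2 (edgeR or DESeq2).

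**Figure D5:**
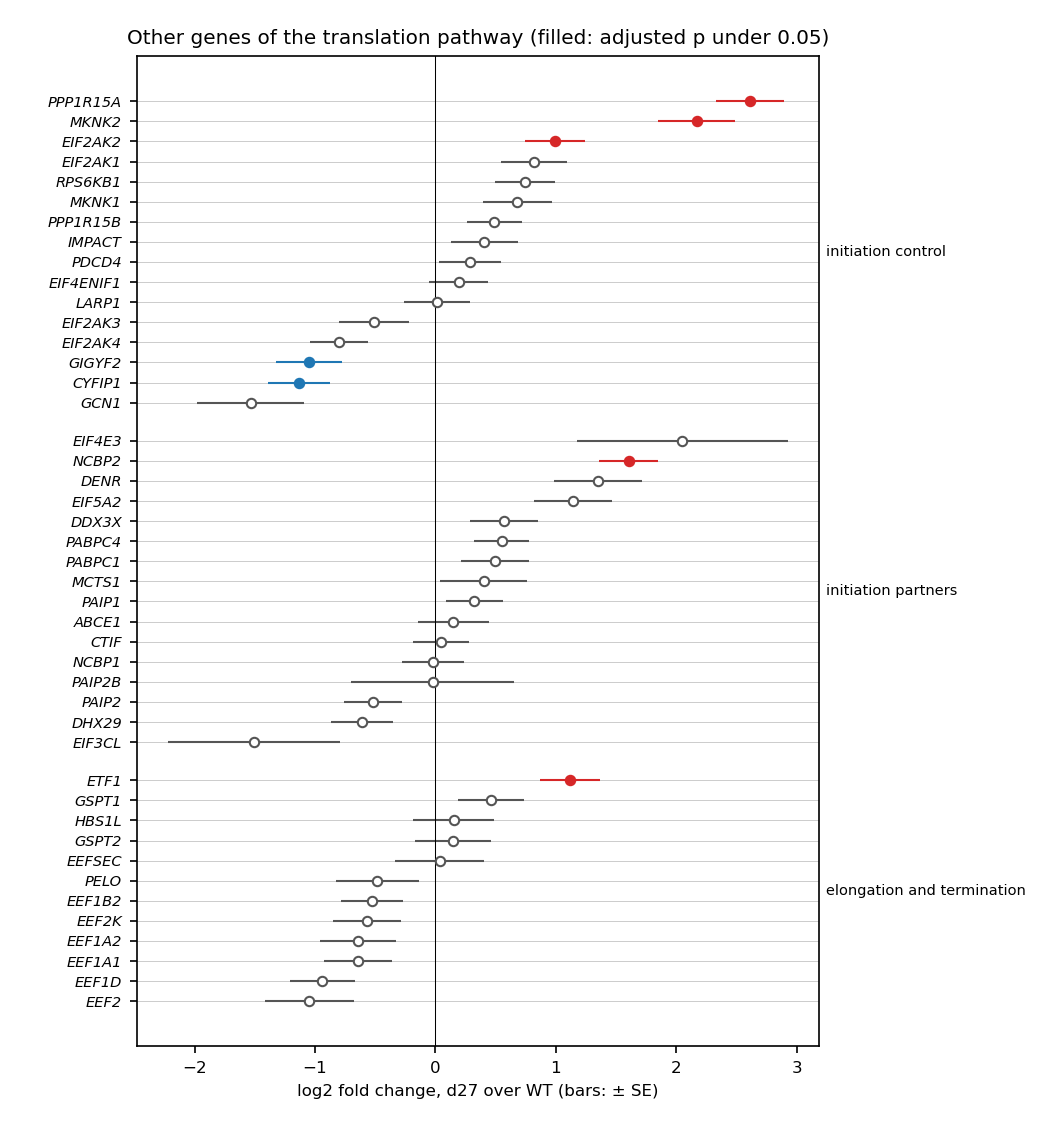
Log2 fold change, d27 over WT, with bars of 1 SE, for tested genes of the 3 lists of translation pathway genes outside the 43. Red filled marks rose and blue filled marks fell at an adjusted p of 0.05. PPP1R15A and MKNK2 lie farthest to the right among those that rose, at 2.61 and 2.17.

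Of 16 initiation partners, 1 rose, none fell and 15 did not pass, beside 8.00% of all tested genes higher and 3.70% lower. Their median log2 fold change was 0.36, and 1 call in a list of this size says nothing about the list. NCBP2, the small subunit of the nuclear cap-binding complex, rose from 49.9 and 39.4 CPM in WT to 141 and 131 CPM in d27 (log2 fold change 1.61 ± 0.25 SE, edgeR adjusted p = 0.0120). DENR, which acts in reinitiation and ribosome recycling, had 104 and 62.9 CPM in WT and 274 and 150 CPM in d27 and did not pass (1.35 ± 0.37, edgeR adjusted p = 0.0517). EIF5A2, a paralog of EIF5A, had 7.60 and 10.3 CPM in WT and 20.7 and 18.7 CPM in d27 and did not pass either (1.14 ± 0.33, edgeR adjusted p = 0.0596).

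Of 12 tested elongation and termination factors, 1 rose, none fell and 11 did not pass, beside 8.00% of all tested genes higher and 3.70% lower. Their median log2 fold change was -0.50, and 1 call in a list of this size says nothing about the list. ETF1, the release factor that reads stop codons, rose from 234 and 233 CPM in WT to 563 and 451 CPM in d27 (log2 fold change 1.12 ± 0.25 SE, edgeR adjusted p = 0.0323). The elongation factor EEF1D had 593 and 675 CPM in WT and 286 and 376 CPM in d27 and did not pass (-0.94 ± 0.27, edgeR adjusted p = 0.0592). EEF2, which moves the ribosome along, had 2285 and 3532 CPM in WT and 1070 and 1741 CPM in d27 and did not pass (-1.05 ± 0.37, edgeR adjusted p = 0.102). The ETF1 call was lost without WT replicate 2 (edgeR adjusted p = 0.0586) and without d27 replicate 1 (0.145), and with the coding length offset (0.0646), with a range over all 13 alternatives of 0.000615 to 0.145 (edgeR or DESeq2). EEF1G was listed at 0 counts in every library and was not tested.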

How the data were processed

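Per the labels' protocols, Trizol was used to extract RNA from the anti-V5 precipitates, and ribosomal RNA was removed before strand-marking libraries were made. The authors deposited raw read counts per Ensembl gene, made with HTSeq on GRCh38 per the submitters' processing notes, which also name DESeq2. The aligner, annotation release and strand setting were not given in the sources used here. HTSeq summary entries entered neither library sizes nor tests. In the library of fewest counts, 3 counts, the limit that a count of 0 allows, are 0.368 CPM; this covers counting error only.

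All 14909 genes that passed filterByExpr (minimum count 10, minimum total 15) were tested with edgeR 4.0.16 in R 4.3.3, using TMM scaling, glmQLFit (robust) and glmQLFTest on group. Benjamini-Hochberg adjustment covered every gene tested (threshold 0.05). An SE is the size of the log2 fold change over the root of F. Symbols came from a gene name table, and coordinates, lengths and start codons from the principal transcripts of GENCODE release 29. Simulated counts for d27 against WT (14236 genes tested) gave a recovery of 22.4% at 2-fold, 88.1% at 4-fold and 95.5% at 8-fold, with 7 false calls. The simulation changed 200 genes and took the dispersion from its trend over genes. In the data 1743 genes passed, so recovery there may differ.

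Members, lists and tests were chosen with earlier results of these data known. The rule named called members, those of lowest p up to 14 in all, both members of 5 paralog pairs, and called genes and up to 2 more per pathway list. Values of other members and of single marker genes, and the marker sum without FOSL1, were chosen after they were seen. Alternatives were DESeq2 1.42.0, its size factors, library totals, 2 other filters, a replicate block, an offset for GC content and exon length, a likelihood ratio test, each library left out and, chosen after seeing the data, an offset for GC content, coding length and 3' UTR length.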

Additional observations from a re-analysis of the deposited data

How the results depend on the processing

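Over 13 alternatives, none of the 5 members that passed changed direction; 14 of the other members crossed 0 in at least 1 alternative, none of them among the 14 of lowest p. Of the 5 members called, EIF1 and EIF4EBP2 passed in all 13, EIF1AX and EIF1B in 12 and EIF1AD in 11, and 22 members passed in no fit. The numbers of members higher and lower (5 and 0) are given here with the percent of all tested genes higher and lower in brackets (8.00% and 3.70%). They became 10 and 5 with DESeq2 (11.0% and 7.75%) and 10 and 3 with no filter (6.09% and 3.14%). The likelihood ratio test gave 10 and 4 (12.5% and 8.64%). At least 50 counts in each library of a group gave 6 and 3 (12.5% and 9.15%). An offset for GC content and exon length gave 6 and 3 (9.55% and 5.11%). The offset for coding and 3' UTR length gave 5 and 4 (7.04% and 2.36%). DESeq2 size factors in edgeR (7.93% and 4.01%) and library totals (5.96% and 1.91%) left the numbers at 5 and 0. With a library left out, a group held a single library. Higher calls were then fewest without d27 replicate 1 and most without WT replicate 1, among members and all tested genes alike. Lower calls were also most without WT replicate 1 in both. Replicate numbers are shared by the groups, and the deviations of same-numbered libraries had a correlation of 0.0797. The labels do not say whether same-numbered precipitates share a culture or day, and this correlation cannot settle it. With the replicate block, 10 members were higher and 5 lower, and of all genes 3575 passed, 2137 higher (14.3%) and 1438 lower (9.65%). The members' median of -0.01 became 0.047 with library totals, 0.059 with no filter, -0.070 with the 50-count filter, -0.088 and 0.078 with the offsets and -0.056 to 0.083 with a library left out. The calls over all genes, 1192 higher and 551 lower, 1743 in all, became 2794 in all and 1156 lower with DESeq2, 3145 (1857 higher, 1288 lower) with the likelihood ratio test and 2862 (1888 and 974) with no filter. Lower calls became 285 with library totals, 352 with the coding length offset and 1008 with the 50-count filter. With a library left out, all calls ran from 768 to 4851, higher ones from 697 to 2715 and lower ones from 71 to 2136. The members' share of counts differed by 0.0249 percentage points, 0.00388 without KIF5A and mitochondrially encoded genes, where the groups overlapped, and 0.161 with summary entries in the total, and by 0.0102 to 0.0396 with a library left out. Each cause was not tested. The members' lowest count was 51. A member that did not pass is not shown to be unchanged, and the simulated recovery of 2-fold changes may differ from that in these data.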

Other observations

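The 5' ends of the members were searched for a terminal oligopyrimidine run, which marks mRNAs whose translation follows mTOR signalling. The run was defined as a C followed by at least 4 further C or T bases, on the transcript strand, beginning within 5 bases before to 10 bases after the RefSeq start (GRCh38.p14). It was present in 16 of 36 members with a promoter entry (44.4%) and in 25.8% of 27305 genes. No entry was matched for EIF2S2, EIF3A, EIF3E, EIF3G, EIF3H, EIF3L or EIF4EBP1. The longest runs were those of EIF3F (14 bases) and EIF2S3 (12 bases), shown beside EIF1, whose run of 5 bases ends before its start. The runs of EIF2S3 and EIF1 begin at the search limit, and further C or T bases directly precede them. Each window covers 10 bases before the start and 20 from it, with the run in capitals.

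EIF3F: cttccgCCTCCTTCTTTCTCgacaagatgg
EIF2S3: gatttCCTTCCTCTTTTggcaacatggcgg
EIF1: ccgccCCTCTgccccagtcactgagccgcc

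The windows are chr11:7987327-7987356, chrX:24054946-24054975 and chr17:41688875-41688904, all on the plus strand. The median log2 fold change, d27 over WT, was 0.17 in the 16 members with a run and -0.11 in the 20 without, with ranges of -0.998 to 1.90 and -0.87 to 1.61. Of the mRNAs that rose, EIF1 and EIF4EBP2 had a run and EIF1B, EIF1AX and EIF1AD had none. In the RefSeq window around the start, 250 bases before to 50 after it, on both strands, no member held the cAMP response element TGACGTCA or the ATF4 composite site TGATGNAAN, which 1.98% and 3.67% of all promoters held. TATAAA was present in 1 of 36 members, EIF4A2, and in 12.0% of all promoters.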
